A study of Homo sapiens with 8 samples.

Results

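The genes described here are 32 genes of the G2 and M phases of the cell cycle, out of 18478 genes measured by RNA-seq in human melanoma cell lines. They were chosen by name as well-known genes of mitotic entry, the spindle, the kinetochore and cytokinesis, by a rule that uses no measured value, but with earlier results of these data known. All 32 were found in the authors' table through their Entrez identifiers. A2058 and C8161 are established melanoma lines. In each, a retrovirus had introduced ATF3, a basic leucine zipper transcription factor that cells make under stress, and cells carrying a neomycin control served for comparison. The groups were C8161 with ATF3 (3 libraries), C8161 control (3 libraries), A2058 with ATF3 (1 library) and A2058 control (1 library), all from total RNA of cells grown in DMEM with 10% serum. The labels give neither the promoter that drives the introduced ATF3, nor whether clones or pools of transduced cells were used, nor whether the 3 C8161 libraries of an arm came from separate cultures. The table holds 1 value per gene and group, in RPKM (reads scaled for transcript length and for the mapped reads of a library), and each C8161 value combines the 3 libraries of its arm. No group has a replicate spread, so no difference below was tested and no p-value is given.

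A cell passes into mitosis when cyclin-dependent kinase 1 (CDK1), bound to cyclin A and then cyclin B, is switched on. Aurora and Polo-like kinases then build the spindle, kinetochores attach chromosomes to it, and a checkpoint holds the anaphase-promoting complex back until every chromosome is attached. Transcripts of these genes peak together late in the cycle under the transcription factors FOXM1 and B-MYB with the MuvB complex, and are low in resting cells, so their level in a culture is widely read as a mark of dividing cells. In a bulk sample, fewer cells in these phases and less RNA per cell cannot be told apart.

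ATF3 was at 62.6 RPKM in C8161 with ATF3 against 4.76 RPKM in the C8161 control. In A2058 with ATF3 it was at 4.71 RPKM, against 1.22 RPKM in the A2058 control, and so only level with the C8161 control. These values do not tell introduced ATF3 from the cells' own. Of 10 melanoma markers, 4 in C8161 with ATF3 and 3 in the C8161 control reached 1 RPKM, while all 10 did in both A2058 columns. SOX10, PMEL, TYR, DCT, MLANA and S100B lay at 0.33 RPKM or less in both C8161 columns, so these genes of the melanocyte lineage were at or near 0 in C8161, where MCAM and CSPG4 were at 37.3 and 12.5 RPKM with ATF3 and at 38.2 and 13.3 RPKM in the control. The 10 markers summed to 54.8 and 56.6 RPKM in C8161 with ATF3 and its control, against 2003 and 1954 RPKM in A2058 with ATF3 and its control. Summed levels of the leukocyte markers lay between 0.96 and 2.58 RPKM and those of the fibroblast markers between 0.74 and 13.3 RPKM, and of the keratinocyte markers only KRT10 reached 1 RPKM. The endothelial markers summed to 99.3 RPKM in C8161 with ATF3 and 96.7 RPKM in the C8161 control, against 1.9 and 1.79 RPKM in A2058 with ATF3 and its control. Of these 5 markers, 3 reached 1 RPKM in each C8161 column. CDH5 (VE-cadherin) was at 18.1 RPKM in C8161 with ATF3 against 8.86 RPKM in its control. ROBO4 was at 18.1 against 20.5 RPKM and TIE1 at 62.8 against 67.2 RPKM. PECAM1, at 0.20 against 0.11 RPKM, and VWF, at 0.04 against 0.02 RPKM, lay near 0 in C8161. The part of the endothelial markers in the values below was not tested. In A2058, values of weakly expressed genes fell loosely on multiples of a single read. The best matching depths were 17960000 reads with ATF3 and 17800000 in the control, with a coherence (1 for a perfect match) of 0.357 and 0.409, against 0.208 and 0.242 for the next best depth, so read numbers below are estimates. No such steps were found in the C8161 columns, whose depth is unknown.

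All 32 genes were expressed, at 1 RPKM or more, in all 4 columns. Their summed level was 2006.3 RPKM in C8161 with ATF3 and 1948.1 RPKM in the C8161 control, and 1260.9 RPKM in A2058 with ATF3 and 1252.5 RPKM in the A2058 control. The set thus took 0.425% and 0.405% of all RPKM in C8161 and 0.265% and 0.266% in A2058. It stood higher in C8161 than in A2058 in either arm, while the arms of a line lay close together. Median levels of the 32 genes were 50.2, 47.9, 30.7 and 30.6 RPKM in the same order. CDC20 was the most abundant in both controls, and CENPE and CDC25C were the least abundant in both.

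**Figure D1:**
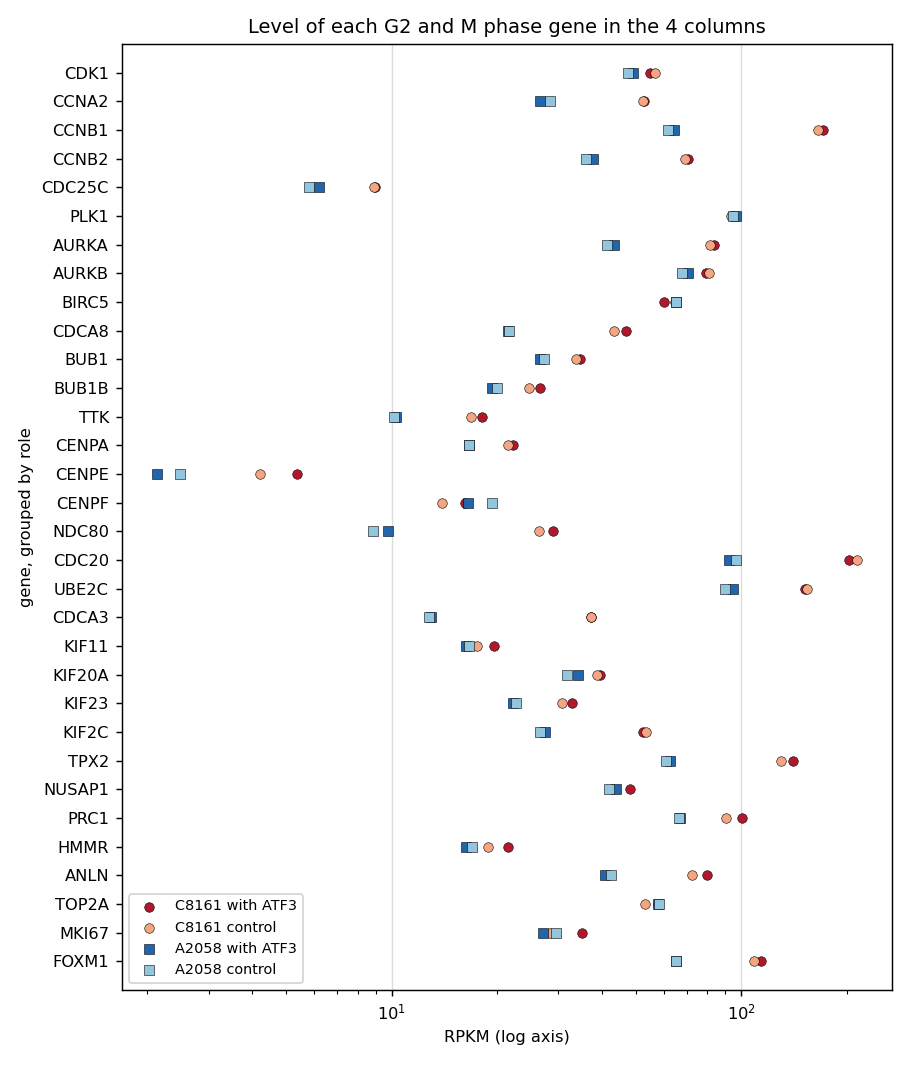
Level of the 32 genes in RPKM on a log axis, in C8161 with ATF3, C8161 control, A2058 with ATF3 and A2058 control, each point 1 column of the authors' table. Circles of C8161 lie right of the squares of A2058 for most genes, and the points of a line lie close together, with CENPE and MKI67 among the widest apart.

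The first comparison asks how these genes stood in C8161 with introduced ATF3 against C8161 control cells. Most lay slightly higher with ATF3, by a few percent, and the genes with the 3 longest transcripts of the set (MKI67, CENPE and CENPF) lay 1.16-fold to 1.28-fold higher. The ratio used was the ATF3 column minus the control column after taking log2(RPKM + 1), which understates differences of low genes. It was above 0 for 26 of the 32 genes, against 52% of the 10941 genes compared in C8161, and below 0 for 6, against 47.3%. Its median over the 32 genes was 0.06, against 0.01 over all genes compared, and it ranged from −0.10 for BIRC5 to 0.29 for MKI67. At a size of 0.2 or more, about 1.15-fold, 3 of the 32 were higher (background 5.33%) and 0 were lower (background 6.63%). A count of 3 in a set of 32 lies near that background.

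The second comparison is the same in A2058, where ATF3 itself reached a far lower level. Here the genes lay evenly around 0, and CENPF, a kinetochore protein, had the lowest ratio. Without the added 1, the log2 folds of CENPF and CENPE were nearly equal, both −0.23. The ratio was above 0 for 18 of the 32 genes, against 51.3% of 11883 genes compared, and below 0 for 14, against 48.1%. The median was 0.00 over the 32 genes and 0.00 over all genes compared, with a range from −0.22 for CENPF to 0.13 for NDC80. At 0.2 or more, 0 were higher (background 4.23%) and 1 was lower (background 3.51%). The A2058 columns are 1 library each.

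**Figure D2:**
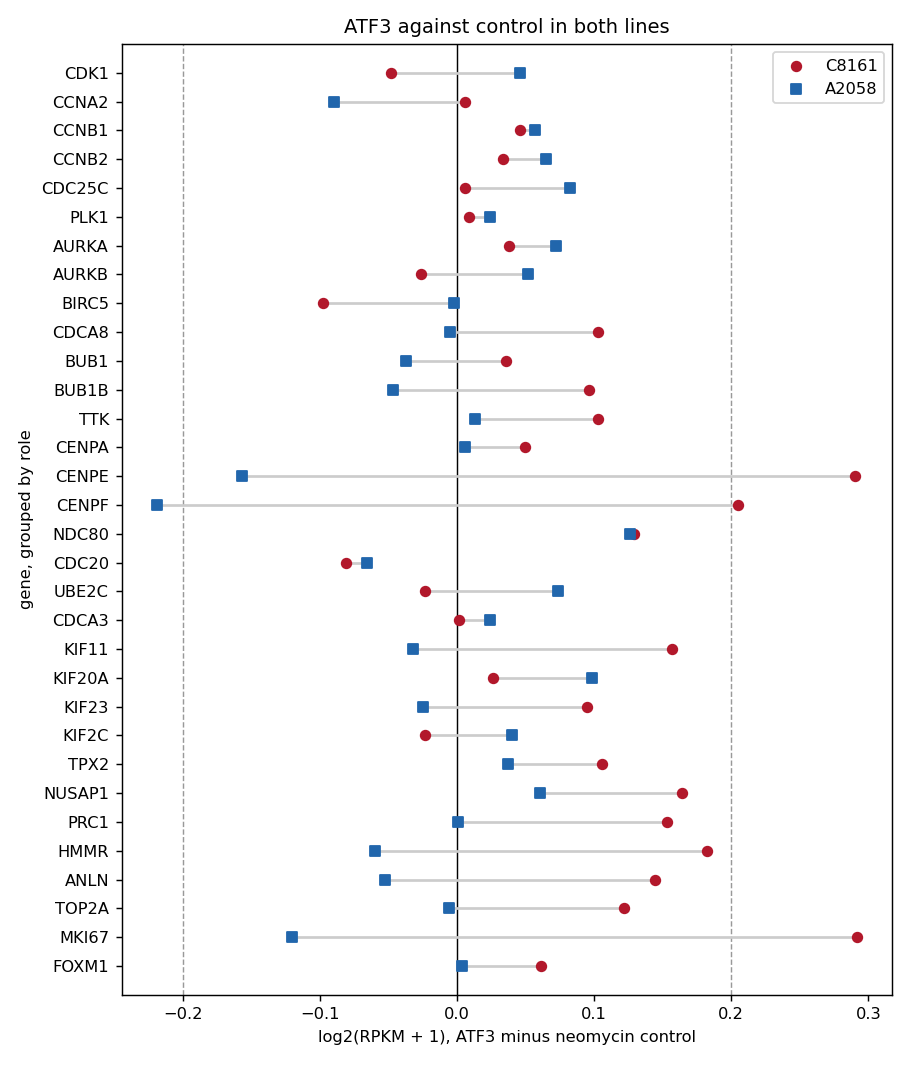
Difference in log2(RPKM + 1) between the ATF3 column and its neomycin control, for C8161 (circles) and A2058 (squares), with 1 row per gene and dashed lines at −0.2 and 0.2. MKI67, CENPE and CENPF lie past 0.2 in C8161 and below 0 in A2058, and NDC80 is at 0.13 in both lines.

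Among the regulators that drive entry into mitosis, no gene reached a ratio of 0.1 in either direction. CDK1, the mitotic kinase itself, was at 54.7 RPKM in C8161 with ATF3 against 56.6 in its control, and at 48.9 RPKM in A2058 with ATF3 against 47.4. CCNA2 (cyclin A2) was at 52.6 RPKM against 52.4 in C8161 and at 26.6 against 28.4 in A2058. CCNB1 (cyclin B1) was at 172 RPKM against 166 in C8161 and at 64.4 against 61.9 in A2058. Cyclin B1 was therefore the most abundant cyclin of the set in every column. CCNB2 (cyclin B2) was at 70.5 RPKM with ATF3 against 68.85 in C8161 and at 37.6 against 35.9 in A2058. CDC25C, the phosphatase that activates CDK1, was at 8.95 RPKM against 8.91 in C8161 and at 6.20 against 5.80 in A2058. PLK1, the Polo-like kinase, was at 93.8 RPKM against 93.2 in C8161 and at 96.3 against 94.7 in A2058. The ratios of these 3 genes lay between 0.01 and 0.08 in both lines. AURKA (Aurora A), which acts at the spindle poles, was at 83.3 RPKM against 81.2 in C8161 and at 43.3 against 41.2 in A2058. FOXM1, the transcription factor of this gene program, was at 114 RPKM with ATF3 against 109 in C8161 and at 65.1 against 65.0 in A2058. Its ratios were 0.06 and 0.00.

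The chromosomal passenger complex corrects wrong attachments of chromosomes and later guides cytokinesis. Its members went in different directions in C8161, and none reached 0.2. AURKB, its kinase Aurora B, was at 79.2 RPKM with ATF3 against 80.7 in C8161 and at 70.3 against 67.8 in A2058. BIRC5 (survivin) was at 60.1 RPKM against 64.4 in C8161, the lowest ratio of the set there, and at 65.0 against 65.1 in A2058. CDCA8 (borealin) was at 46.6 RPKM against 43.4 in C8161 and at 21.6 against 21.7 in A2058.

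The spindle checkpoint kinases and the kinetochore proteins all had ratios above 0 in C8161. BUB1 was at 34.6 RPKM with ATF3 against 33.7 in C8161 and at 26.6 against 27.3 in A2058. BUB1B, which encodes the checkpoint protein BubR1, was at 26.5 RPKM against 24.7 in C8161 and at 19.3 against 20.0 in A2058. TTK, the kinase MPS1 that starts checkpoint signalling, was at 18.1 RPKM against 16.8 in C8161 and at 10.3 against 10.2 in A2058. The checkpoint kinases thus had ratios of 0.04 to 0.10 in C8161 and of −0.05 to 0.01 in A2058. CENPA, the histone H3 variant that marks centromeres, was at 22.2 RPKM against 21.45 in C8161 and at 16.7 against 16.6 in A2058. NDC80, the microtubule-binding subunit of the outer kinetochore (chromosome 18, 2571557 to 2616635, GRCh38), had 28.9 RPKM with ATF3 against 26.3 in C8161 and 9.76 against 8.86 in A2058. With ratios of 0.13 in both lines, it was the single gene of the set above 0.1 in both. In A2058 these levels stand for an estimated 381 reads with ATF3 and 343 in the control, and the log2 fold of 0.14 has an estimated counting error of 0.11.

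CENPE, CENPF and MKI67 had the 3 highest ratios of the set in C8161 and the 3 lowest in A2058. CENPE, the kinesin that carries chromosomes to the spindle equator (chromosome 4, 103105811 to 103198343, GRCh38), had 5.36 RPKM with ATF3 against 4.20 in C8161 and 2.13 against 2.49 in A2058. CENPF, a large protein of the outer kinetochore (chromosome 1, 214603195 to 214664571, GRCh38), was at 16.2 RPKM against 14.0 in C8161 and at 16.5 against 19.4 in A2058. MKI67, which encodes the proliferation antigen Ki-67 that coats mitotic chromosomes (chromosome 10, 128096659 to 128126423, GRCh38), was at 35.1 RPKM against 28.5 in C8161 and at 27.1 against 29.5 in A2058. All 3 were thus at least 0.1 higher with ATF3 in C8161 and at least 0.1 lower with ATF3 in A2058, which held for 3 of the 32 genes and for 3.07% of the 10331 genes compared in both lines. Their ratios in C8161 were 0.29, 0.20 and 0.29. MKI67 and CENPE lay above the band that holds the middle 95% of ratios among the 500 genes of most similar level, as did 2.79% of all genes compared, and CENPF lay inside it at percentile 95.8. None of the 32 lay below the band in C8161 (background 2.68%), and none lay above it in A2058 (background 2.69%). In A2058 the ratios were −0.16, −0.22 and −0.12. CENPF lay below the band, as did 2.73% of all genes, and CENPE and MKI67 lay inside it. The next genes, HMMR at 0.18 in C8161 and CCNA2 at −0.09 in A2058, lay close to the smallest of these values. An estimated 3062 reads with ATF3 and 3563 in the control stand behind CENPF in A2058, which gives its log2 fold of −0.23, taken without the added 1, a counting error of 0.04. For MKI67 the log2 fold of −0.12 has a counting error of 0.03, and for CENPE the log2 fold of −0.23 has an error of 0.11. These read numbers and errors rest on the estimated depth and the longest known transcript, and cover counting error only, not differences between cultures or libraries.

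TOP2A, the topoisomerase that untangles sister chromatids, was at 57.6 RPKM with ATF3 against 52.9 in C8161 and at 57.8 against 58.1 in A2058. It is often used with MKI67 as a proliferation marker, and its ratios were 0.12 and −0.01. ANLN (anillin), a scaffold of the cytokinetic ring, was at 80.0 RPKM against 72.2 in C8161 and at 40.7 against 42.3 in A2058. Both genes were thus slightly higher with ATF3 in C8161 and within 0.1 of 0 in A2058.

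Of 8 spindle motors and microtubule proteins, none reached 0.2 in C8161. Their ratios there lay between −0.02 and 0.18, and 7 were above 0, against 52% of all genes. KIF11, the motor that pushes spindle poles apart, was at 19.65 RPKM with ATF3 against 17.5 in C8161 and at 16.3 against 16.7 in A2058. KIF20A, a motor of the central spindle, was at 39.5 RPKM against 38.7 in C8161 and at 34.0 against 31.7 in A2058. KIF23, the motor of the centralspindlin complex, was at 32.8 RPKM against 30.6 in C8161 and at 22.2 against 22.6 in A2058. These motors had ratios of 0.03 to 0.16 in C8161 and of −0.03 to 0.10 in A2058. KIF2C, a kinesin that takes microtubules apart, was at 52.5 RPKM against 53.4 in C8161 and at 27.4 against 26.6 in A2058. TPX2, which binds and activates Aurora A, was at 140.1 RPKM against 130.1 in C8161 and at 62.5 against 60.9 in A2058. KIF2C was thus the single gene of this role below 0 in C8161. HMMR, a spindle pole protein that also binds hyaluronan, was at 21.6 RPKM against 18.9 in C8161 and at 16.3 against 17.0 in A2058. NUSAP1, which bundles microtubules near chromosomes, was at 48.0 RPKM against 42.7 in C8161 and at 43.7 against 41.9 in A2058. PRC1, which cross-links microtubules of the central spindle, was at 100.3 RPKM against 90.2 in C8161 and at 66.6 against 66.5 in A2058. PRC1 and NUSAP1 share 63.9% and 68% of the stretches of 50 bases in their longest transcript with another annotated gene on the same strand, so their values are less certain. No other gene of the set shared more than 9.03%. Exons of 11 of the 32 genes overlap a gene on the opposite strand, and whether counting used strand is not given in the sources used here.

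The genes of the anaphase-promoting complex pathway had ratios of −0.08 to 0.00 in C8161. CDC20, its activator in mitosis and the target of the checkpoint, was at 203 RPKM with ATF3 against 215 in C8161 and at 92.1 against 96.5 in A2058. UBE2C, the ubiquitin-conjugating enzyme of the complex, was at 152 RPKM against 154.5 in C8161 and at 94.6 against 89.9 in A2058. CDCA3, a substrate of the complex that helps cells enter mitosis, was at 37.24 RPKM against 37.20 in C8161 and at 13.0 against 12.8 in A2058. CDC20 was slightly lower with ATF3 in both lines, as was BIRC5, and 14 of the 32 genes were above 0 in both (background 25.6%). Another 12 were higher in C8161 and lower in A2058 (background 26.1%).

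Within the set, the ratio in C8161 was larger for longer transcripts and in A2058 smaller. Over the 32 genes, the Spearman correlation with the length of the longest GENCODE transcript was 0.64 in C8161 and −0.60 in A2058, and that with GC content was −0.54 and 0.26. The genes share their 4 columns, so these are descriptions. The same relations over all genes compared were weaker, at 0.20 and −0.23 for length and −0.42 and 0.09 for GC content. In the 10% of compared genes with the longest transcripts the median ratio was 0.04 in C8161 and −0.05 in A2058. MKI67, CENPF and CENPE have the longest transcripts of the set, at 12.7, 10.3 and 8.61 kb, against a median of 3.03 kb over the set and 3.71 kb over all genes compared. The 29 genes with transcripts under 7 kb, a limit set after the values were seen, had ratios of −0.10 to 0.18 in C8161 and of −0.09 to 0.13 in A2058. After removal of the trends that all genes show with GC content and length, the ratios of MKI67, CENPF and CENPE were 0.27, 0.15 and 0.23 in C8161 and −0.06, −0.16 and −0.10 in A2058. CENPF then no longer passed 0.2 in either line, and the count of higher genes in C8161 was 2 rather than 3, while 26 of 32 lay above 0. Of these, 24 were the same genes as before, with BUB1 and CCNA2 now below 0 and AURKB and UBE2C above it. Over the 32 genes, the Spearman correlation of the ratio with length was then 0.54 in C8161 and −0.45 in A2058, so most of it remained. The part of length in these differences was not tested further. Over the 32 genes the ratios of the lines, which share no column, had a Spearman correlation of −0.40 with each other, and of −0.26 after the removal.

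**Figure D3:**
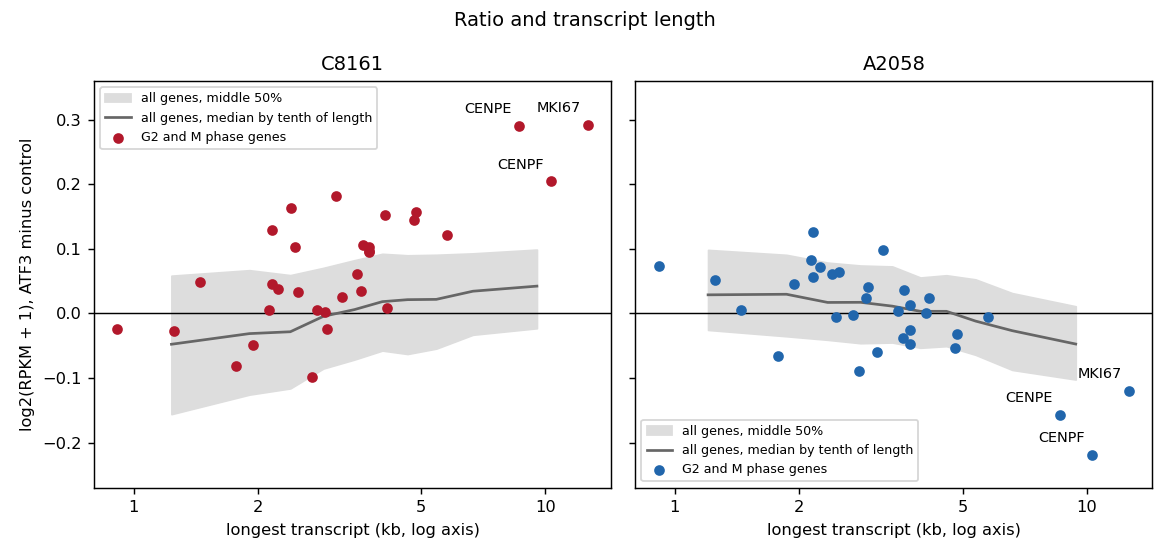
Difference in log2(RPKM + 1), ATF3 column minus control column, against the length of the longest transcript (log axis) in C8161 and A2058, with each point 1 of the 32 genes, the line the median and the shading the middle 50% of all genes compared, in 10 bins of length. MKI67, CENPE and CENPF lie at the right edge, above 0 in C8161 and below 0 in A2058. CENPE lies above the shading in C8161 and below it in A2058, while CENPF and MKI67 lie beyond its right end.

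Promoters of G2 and M phase genes are known for the cell cycle genes homology region (CHR), bound by MuvB complexes, and for CCAAT boxes, bound by NF-Y. ATF3 binds cAMP response elements (CRE), alone or with partners. RefSeq promoter windows of 300 bases, from 250 before to 50 after the annotated start (GRCh38.p14), were at hand for 26 of the 32 genes (not for AURKA, BIRC5, FOXM1, TPX2, TTK and UBE2C), with the first listed start taken where a gene has several. They are shown for the 3 genes with the largest ratio in C8161 and for CCNB1, as the abundant cyclin that hardly differed. Capitals mark TTTGAA (the CHR), CCAAT and TGACGTCA (the CRE), on either strand. In MKI67 the second CHR and a reverse CCAAT overlap.
MKI67, chr10:128126374-128126673, minus strand: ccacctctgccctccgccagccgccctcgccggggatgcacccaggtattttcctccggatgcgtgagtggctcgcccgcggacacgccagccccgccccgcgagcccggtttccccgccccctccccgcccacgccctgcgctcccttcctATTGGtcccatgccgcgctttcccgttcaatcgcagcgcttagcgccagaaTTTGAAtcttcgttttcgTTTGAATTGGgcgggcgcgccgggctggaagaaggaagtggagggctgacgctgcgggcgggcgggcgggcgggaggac
CENPE, chr4:103198294-103198593, minus strand: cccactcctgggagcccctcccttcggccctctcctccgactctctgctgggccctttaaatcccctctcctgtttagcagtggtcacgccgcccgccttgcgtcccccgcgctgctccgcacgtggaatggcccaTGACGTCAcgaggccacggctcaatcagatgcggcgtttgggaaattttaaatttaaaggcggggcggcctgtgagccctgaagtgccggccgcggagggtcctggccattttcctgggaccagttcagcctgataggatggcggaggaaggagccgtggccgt
CENPF, chr1:214602945-214603244, plus strand: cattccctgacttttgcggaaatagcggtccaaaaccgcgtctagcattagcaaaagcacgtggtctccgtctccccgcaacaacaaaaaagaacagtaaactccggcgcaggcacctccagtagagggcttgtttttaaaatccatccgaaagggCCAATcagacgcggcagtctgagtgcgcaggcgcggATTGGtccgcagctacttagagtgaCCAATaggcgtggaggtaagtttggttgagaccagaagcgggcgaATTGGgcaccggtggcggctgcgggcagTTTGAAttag
CCNB1, chr5:69166900-69167199, plus strand: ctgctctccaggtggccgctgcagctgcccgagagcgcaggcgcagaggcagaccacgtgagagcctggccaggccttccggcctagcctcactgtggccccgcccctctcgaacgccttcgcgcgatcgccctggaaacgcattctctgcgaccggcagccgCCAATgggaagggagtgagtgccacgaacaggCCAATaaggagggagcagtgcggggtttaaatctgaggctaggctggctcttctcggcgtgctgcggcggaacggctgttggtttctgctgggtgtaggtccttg

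MKI67 held a CHR 47 and 29 bases upstream of its start, CENPF held a CHR 41 bases downstream and 4 CCAAT words, and CCNB1 held CCAAT 87 and 55 bases upstream. CENPE held neither word but a CRE 114 bases upstream. Across the 26 windows the CHR letters were present in 18 (69.2%), against 15.4% of all 27305 promoter windows and 9.43% of those of genes compared in C8161. CCAAT was present in 20 (76.9%), against 35.7% of all windows and 36.8% of those of genes compared, and both words in 15 (57.7%), against 6.08% and 4.06%. The CRE was present in 4 (15.4%), against 1.98% of all windows and 3.36% of those of genes compared in C8161, namely in CENPE, CCNA2, NDC80 and PRC1, and the AP-1 word TGACTCA in 0 of 26, against 4.92% and 2.95%. The ratios of the 4 genes with a CRE, in the order given, were 0.29, 0.01, 0.13 and 0.15 in C8161 and −0.16, −0.09, 0.13 and 0.00 in A2058. Genes with a CRE in this window therefore lay on both sides of 0 in A2058 and between 0.01 and 0.29 in C8161. A match describes letters and not a binding site.

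The third comparison sets the lines against each other and holds by far the larger differences of these genes. In control cells, 27 of the 32 genes were higher in C8161 than in A2058, with a median log2 ratio of 0.49, against −0.19 over the 12372 genes compared and 40.7% of them above 0. At 0.5 or more, about 1.41-fold, 16 of 32 were higher in C8161 (background 19.8%) and 0 were lower (background 36.1%). Quantile normalization, which gives every column the same distribution, moved the shares of all genes to 29.5% higher and 26.6% lower, and 18 of the 32 were then higher. Relative to the median of all genes, the median of the set lay 0.67 higher. With the trends in GC content and length removed, the median was 0.37, 26 genes lay above 0, and 13 were higher and 1 lower at 0.5. CDK1, KIF11, NUSAP1 and HMMR then lay below 0, at −0.10, −0.19, −0.21 and −0.24. In the columns with ATF3 the pattern was alike, with 17 of 32 higher (background 20.6%), 0 lower (background 36.8%) and a median of 0.56.

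NDC80 showed the largest fold, at 26.3 RPKM in control C8161 against 8.86 RPKM in control A2058, 2.97-fold higher. CDCA3 was 2.91-fold higher (37.2 against 12.8 RPKM), CCNB1 2.68-fold (166 against 61.9 RPKM), CDC20 2.23-fold (215 against 96.5 RPKM) and TPX2 2.14-fold (130.1 against 60.9 RPKM). KIF2C (53.4 against 26.6 RPKM), CDCA8 (43.4 against 21.7 RPKM) and AURKA (81.2 against 41.2 RPKM) followed. These genes span the cyclins, the kinetochore, the anaphase-promoting complex and the spindle. At the other end, PLK1 (93.2 against 94.7 RPKM), BIRC5 (64.4 against 65.1 RPKM), MKI67 (28.5 against 29.5 RPKM) and TOP2A (52.9 against 58.1 RPKM) were nearly level in the controls. CENPF was the single gene with a ratio below −0.2, at 14.0 RPKM in control C8161 against 19.4 RPKM in control A2058, a ratio of −0.45. The common proliferation markers MKI67 and TOP2A thus did not follow the cyclins and CDC20. Over the 32 genes, the ratio between the control lines had a Spearman correlation of −0.42 with transcript length, against 0.03 over all genes compared. With the trends in GC content and length removed, the correlation over the 32 genes was −0.43. The part of length in this contrast was not tested. With ATF3, MKI67 was at 35.1 RPKM in C8161 against 27.1 RPKM in A2058, a ratio of 0.36, and CENPF was level at 16.2 against 16.5 RPKM.

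**Figure D4:**
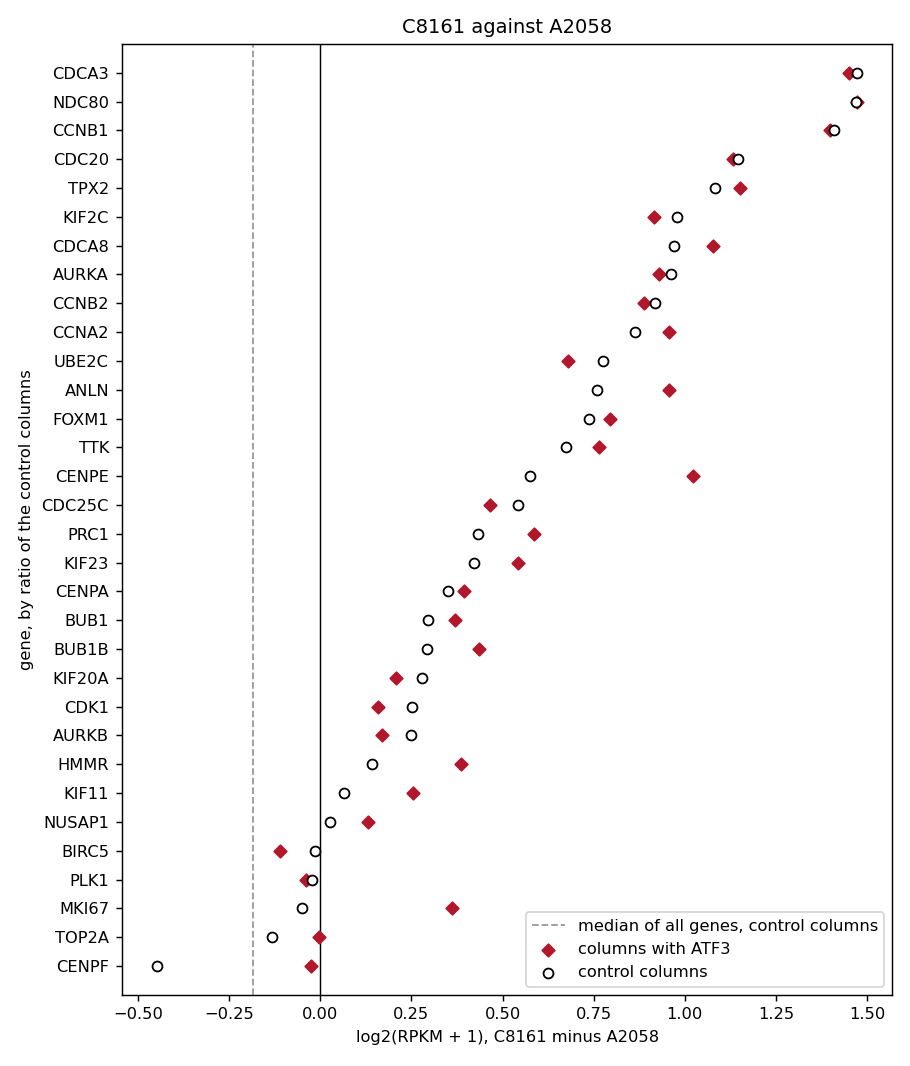
Log2(RPKM + 1) in C8161 minus that in A2058 for the 32 genes, ordered by the control columns, with diamonds for the columns with ATF3 and open circles for the control columns. Most points lie right of 0 and all but CENPF in the control columns lie right of the dashed median of all genes, at −0.19.

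Partners therefore stood in different proportions in the lines. Per length, CCNB1 was 2.94 times as abundant as its kinase CDK1 in control C8161 and 1.31 times in control A2058. For CCNA2 the same proportion was 0.926 and 0.599. AURKB was 1.86 times as abundant as CDCA8, its partner in the passenger complex, in control C8161 and 3.13 times in control A2058. In the columns with ATF3, CCNB1 over CDK1 was 3.14 in C8161 and 1.32 in A2058, and AURKB over CDCA8 was 1.70 and 3.26. Across the 32 genes the levels of the control columns followed each other with a Spearman correlation of 0.90.

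Other genes of the same pathways, listed by function, gave the following counts in C8161 with ATF3 against control. SKA2, SPC25, CKAP2, CENPW, MCM2, KNL1, CIT and ANAPC1 are named after their values were seen. In C8161 the shares of all genes at 0.2 are the 5.33% higher and 6.63% lower given above, and most list counts lie near them. In A2058 the shares are 4.23% higher and 3.51% lower. Of 20 further kinetochore and checkpoint genes 2 were higher and 1 was lower at 0.2, with a median of 0.06. NUF2, the partner of NDC80, was at 29.3 RPKM with ATF3 against 23.5, SKA2 was at 33.2 against 28.7, and SPC24, in the same complex as NUF2, was at 15.7 against 18.6. In A2058 1 gene of this list passed 0.2, SPC25 of that complex, at 17.0 RPKM with ATF3 against 19.9. Of 20 spindle kinesins and microtubule proteins 3 were higher and 0 lower (median 0.06), the third being CKAP2 at 37.2 RPKM against 32.2. ASPM, a spindle pole protein with a long transcript, was at 8.88 RPKM against 7.43 in C8161 and at 5.79 against 6.62 in A2058, and KIF14 was at 5.48 against 4.62 and at 5.62 against 6.37. Both shared the opposite signs of CENPE, CENPF and MKI67, as did the condensin subunit SMC2 (14.4 against 12.3 RPKM in C8161, 11.6 against 13.0 in A2058). Of all genes compared in both lines, 26.1% had these signs, and 3.07% had them at 0.1 or more. Long transcripts of these lists went both ways. KNL1 had these signs, with ratios of 0.07 in C8161 and −0.13 in A2058. CIT, at 0.14 and 0.07, and ANAPC1, at −0.02 and −0.11, did not. Of 18 centromere and passenger partners 1 was higher, CENPQ at 7.98 RPKM against 6.60, and 2 were lower, CENPM at 26.3 against 33.5 and CENPW at 25.5 against 29.7. Of 18 further G2/M kinases and partners 0 were higher and 1 was lower, PKMYT1, the inhibitory kinase of CDK1, at 12.9 RPKM against 17.0 in C8161 and 32.1 against 31.5 in A2058. CDK7, which activates CDK1, was at 36.2 RPKM against 31.9 in C8161. These lists therefore held genes on both sides of 0. Of 18 genes of the anaphase-promoting complex and its substrates 0 were higher and 2 lower, UBE2S at 192 RPKM against 231 and ANAPC2 at 13.3 against 15.9, and ANAPC2 was also past 0.2 in A2058 at 16.0 RPKM against 18.75. Of 8 condensin subunits 1 was higher, SMC2, and 1 lower, NCAPH2 at 36.8 RPKM against 46.8. Of 21 MuvB, E2F and NF-Y regulators none passed 0.2 in either line, with E2F1 at 18.4 RPKM against 20.8 and E2F8 at 4.31 against 3.66 in C8161. CDKN1A, the CDK inhibitor p21, was at 5.57 RPKM against 4.22 in C8161 and at 17.98 against 14.83 in A2058, the single gene past 0.2 among the CDK inhibitors and G1 cyclins compared, 12 in C8161 and 14 in A2058, and CDK4 was at 152 against 167 in C8161. Between the control lines the medians of these lists were 0.06 to 0.32, except for the CDK inhibitors and G1 cyclins at −0.66.

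The 37 genes of the S phase and DNA replication, the nearest phase of the cycle, differed from the G2 and M set in sign in C8161. Their median ratio there was −0.04, with 13 of 37 above 0, 0 higher and 3 lower at 0.2, POLD1 at 19.9 RPKM with ATF3 against 24.7, CDT1 at 21.8 against 25.5 and MCM2 at 45.9 against 53.6. In A2058 their median was 0.02, with 27 of 37 above 0, against 51.3% of all genes compared. None passed 0.2 there (background 4.23% higher and 3.51% lower). Between the control lines their median was 0.08, with 8 higher and 5 lower in C8161 at 0.5, against 0.49, 16 and 0 for the 32 genes of the G2 and M phases. The S phase counts stand beside 52% of all genes above 0 and 6.63% lower in C8161, and beside 19.8% higher and 36.1% lower between the lines. With no replicate, the difference between the sets was not tested.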

How the data were processed

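Total RNA of A2058 and C8161 cells was sequenced on DNA nanoball libraries, per the labels' protocols. The authors deposited RPKM values for 18478 Entrez genes, rounded to 2 decimals, per the file headers. The tools named, per the submitters' processing notes, are Bowtie2 and RSEM, with the build hg38. The sources used here do not give the annotation, the strand setting or whether the C8161 values are means or pooled reads. Values were used as deposited. Symbols and coordinates came from RefSeq (GRCh38.p14), matched for 18156 identifiers. Length, GC content and shared stretches of 50 bases came from GENCODE 29.

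Ratios were log2(RPKM + 1) over genes with at least 1 RPKM in either column compared. Sizes of 0.2 (arms) and 0.5 (lines) are not tests. The level band is the central 95% of the 500 genes nearest in mean level. Trends with GC content and length were removed by lowess (statsmodels 0.14.6). Removal of a GC trend was checked on simulated data, and removal of a length trend was not. Every one of the 32 genes is named. From other lists, the rule took the 2 largest absolute ratios in C8161 among genes with a mean of at least 2 RPKM. Members and lists were chosen with earlier results of these data known. Promoters and motif letters came from RefSeq windows. Alternatives tried were the pseudocount, the minimum level, 2 scalings, removal of trends and the other arm. Values per C8161 library were not analysed here, and no test was made.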

Additional observations from a re-analysis of the deposited data

Results flagged for a closer look

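3 of the 32 genes had ratios of at least 0.1 with opposite signs in the lines, all higher in C8161 and lower in A2058, against 3.07% of the 10331 genes compared in both lines. The size was chosen after the values were seen. The log2 ratio in C8161 minus that in A2058 was 0.45 for CENPE, 0.42 for CENPF and 0.41 for MKI67. Each has a transcript of 8.61 kb or more. The difference between the lines was not tested, because each arm has 1 value.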

How the results depend on the processing

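No paired analysis was possible because the table gives 1 combined value per C8161 arm and 1 library per A2058 arm, and leaving out single replicates was not possible for the same reason. In C8161, across the pseudocount, minimum level, scaling and trend alternatives, 2 or 3 genes were higher and 0 lower, and 23 to 26 lay above 0. In A2058 the count of lower genes, 1, was 2 with a pseudocount of 0.1, where CENPE was added, and 0 once the trends with GC content and length were removed. Between the control lines the median of 0.49 was 0.43 with a minimum of 5 RPKM, 0.67 after quantile normalization, 0.67 with the median of all genes set to 0, 0.37 after trend removal and 0.56 in the columns with ATF3. Removal of the trends also placed 1 gene, CENPF, below −0.5. Quantile normalization placed the median of all genes at 0.08, against −0.19 as deposited, and setting that median to 0 gave a split past 0.5 of 26.4% higher and 29.8% lower. No ratio past its size changed sign in any of these settings. Of 191 alternative values of single genes in A2058, 187 lay within 0.05 of the main value, as did 184 of 192 in C8161 and 108 of 223 between lines.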
